A study of Mus musculus with 17 samples.

Results

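Prostaglandins are made from arachidonic acid, and the genes followed here encode 6 enzymes that make or inactivate them. The 6 genes were taken by their names on the arrays, and they were 6 of 30030 genes. Ptgs1 and Ptgs2 encode the cyclooxygenases, Ptges, Ptges2 and Ptgds encode terminal synthases, and Hpgd encodes the first enzyme of breakdown. Together they had 8 probes, 7 of which passed the filter on dim probes, and every gene had at least 1 probe that passed.

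The samples were cells of the postnatal subventricular zone, the region beside the lateral ventricle whose progenitors make olfactory bulb neurons and glia. Progenitors of the dorsal or of the lateral wall were targeted by in vivo electroporation of CD1 mice at postnatal day 1. Cells positive for GFP were collected by sorting 8 hours or 1, 2, 4, 7 or 14 days later. Each of the 17 arrays held 1 dorsal sample in Cy3 and 1 lateral sample of the same time in Cy5, in 2 (8 hours), 3 (1 day), 2 (2 days), 3 (4 days), 3 (7 days) and 4 (14 days) arrays. All groups shared the strain, the age at electroporation, the sort and a global PCR amplification of cDNA by a commercial service, and no group of cells without electroporation was part of these comparisons. The labels name no genotype, no driver of the GFP and no number of mice in a sample. They call the arrays of a time biological replicates. The p-values rest on the spread between replicates, pooled per gene over the times of all 17 arrays. They do not measure the spread within any 1 time. The labels name polyA RNA for the dorsal channel and total RNA for the lateral channel of every array, so the wall, the dye and, if that is right, the RNA fraction cannot be told apart in any wall difference. Dyes were not swapped. Any probe that reads higher in one dye on all arrays carries that offset into the differences between walls, but not into changes with time within a wall.

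Arachidonic acid is released from membranes by phospholipases and converted by a cyclooxygenase to the unstable intermediate prostaglandin H2. Terminal synthases then turn prostaglandin H2 into prostaglandin E2, prostaglandin D2 or other products, which act on G protein-coupled receptors and are inactivated by oxidation. Ptgs1 is known as the more constant cyclooxygenase and Ptgs2 as the one induced by growth factors, cytokines and neuronal activity. Ptges is known as an inducible synthase that works together with Ptgs2, and Ptgds as an abundant brain enzyme of the meninges, choroid plexus and oligodendrocytes.

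The probes decide which part of each transcript was read, so the first 30 bases of each 60-base probe are given with the coordinates that the files of the newer scanner software hold for build mm9. Exon and UTR positions of the probes were not analysed here.
Ptgs1, A_51_P279100, chr2:36107644-36107703, plus strand: gagccacacttagactctttccaaagatgt
Ptgs2, A_51_P254855, chr1:151954744-151954803, plus strand: tttttgaaaagtttgaagttagaacttagg
Ptgs2, A_52_P224760, chr1:151954416-151954475, plus strand: ctgaagaattgctttcttacttaaaaacaa
Ptges, A_51_P312327, chr2:30747838-30747897, minus strand: gccacttacagatgagctgtcaagatttga
Ptges2, A_51_P349008, chr2:32257968-32258027, plus strand: ccttgacgctgaggacaaggcccaaactta
Ptgds, A_51_P157406, chr2:25322842-25323373, minus strand: tcacagaggaggacattgttttcctgcccc
Hpgd, A_51_P458778, chr8:58799399-58799458, plus strand: aagctcctttacaatggaaatatttagtaa
Hpgd, A_51_P458781, chr8:58799040-58799099, plus strand: ctcagactgcatctttactagtgtagcttt
The Ptgds probe covered 532 bases of the genome with its 60 bases, whereas the other 7 probes covered 60. Ptgs2 was read by 10 spots of its first probe, whose signals within an array had a coefficient of variation of 5.45 to 26.1% over the arrays and channels. The brightest probe of a gene represented it, and the second probes of Ptgs2 and Hpgd are described beside it.

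The promoters of Ptges and Ptgs2 are shown because both genes fell from 8 hours to 1 day. The sequences are the 250 bases before an annotated start in RefSeq's GRCm38.p6, on the strand of the gene, and capitals mark motif matches. The Ptgs2 window ends directly before the annotated span of its gene. The Ptges window lies inside the annotated span of its gene (bases 30889471 to 30931020), so it does not precede the outermost start.
Ptges, chr2:30903298-30903547, minus strand: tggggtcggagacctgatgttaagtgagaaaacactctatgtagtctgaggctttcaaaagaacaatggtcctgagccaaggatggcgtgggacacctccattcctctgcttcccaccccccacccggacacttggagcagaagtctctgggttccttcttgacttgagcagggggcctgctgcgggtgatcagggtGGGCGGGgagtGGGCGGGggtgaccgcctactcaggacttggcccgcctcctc
Ptgs2, chr1:150099781-150100030, plus strand: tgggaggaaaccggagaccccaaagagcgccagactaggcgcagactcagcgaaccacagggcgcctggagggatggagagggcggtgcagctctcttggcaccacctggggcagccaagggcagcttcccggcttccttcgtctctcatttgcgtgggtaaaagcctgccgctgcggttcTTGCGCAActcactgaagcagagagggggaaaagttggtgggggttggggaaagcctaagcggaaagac
The motifs searched on both strands were the GC box GGGCGGG, the cyclic AMP response element core CGTCA, the C/EBP palindrome TTGCGCAA and the TATA box TATAAA. None of these motifs contains another. Ptges held 2 GC boxes, whose first bases lay 53 and 42 bases before the start used here, and 23.4% of all 32851 promoter windows held at least 1. Ptgs2 held 1 C/EBP palindrome, 69 bases before the start, a motif found in 0.164% of windows. Hpgd held 1 GC box. CGTCA, found in 17.8% of windows, and TATAAA, found in 12.4%, were in none of the 6 windows. The windows of Ptgs1 and Ptgds, like that of Ptges, lie inside the annotated spans of their genes. For these genes the sequence before the outermost start was not searched. Motif matches describe letters and not bound sites.

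Levels are normalized log2 fluorescence of a probe, which can be compared between samples and not between probes. A sample is called well above background where the scanner software's own test says so. The lineage of the sorted cells was detected, with 10 of 10 neuroblast markers well above background in every sample and 7 or 8 of 8 radial glia markers in every sample of a time point. Markers of other cells were detected too, so detection does not show how pure the sort was. Of 12 microglia and macrophage markers, 7 to 12 were well above background in every sample of a time point, and at 8 hours so were 7 of 8 neutrophil, 8 of 10 leptomeningeal and 8 of 10 oligodendrocyte markers. The share of spots well above background was 41.5 to 77.0% in the dorsal channel and 56.8 to 79.7% in the lateral channel. In bulk samples, a lower level can mean fewer cells of a type or less RNA per cell, and these cannot be told apart. All arrays of 1 day lay on 1 slide of their own and all arrays of 14 days on another, so the steps into and out of these times cannot be told apart from the slide, while 8 hours shared a slide with 1 array each of 4 and 7 days. Across genes, replicate 1 of 1 day and replicate 2 of 14 days were unlike the other arrays, and without both of them every call of a member below was kept.

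Of the 6 enzymes, 3 changed with time. Ptges, the inducible prostaglandin E synthase, had its 4 highest levels in the 4 samples of 8 hours and was more than 7 log2 units lower at 14 days in both walls. Ptgs2 fell between 8 hours and 1 day, a call that rested on 1 array. Ptgds, the prostaglandin D synthase, rose between 4 and 7 days in both walls. Hpgd was higher in dorsal than in lateral samples at 8 hours, and Ptgs1 and Ptges2 were called in no comparison.

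Across all times, 3 of the 6 genes changed in the mean of both walls (limma F test, adjusted p under 0.05), namely Ptges, Ptgs2 and Ptgds, against 7.57% of all genes tested. Between 8 hours and 1 day 2 of 6 fell, where 0.858% of all genes fell. Between 4 and 7 days 1 of 6 rose, where 0.0718% of all genes rose. At 14 days against 8 hours 2 of 6 were lower in the dorsal wall, where 1.23% of genes were lower, and 2 of 6 in the lateral wall, where 1.13% were. The members were chosen with earlier results of these data known, so these shares are no test of the pathway. Limma called 0 of 6 for 1 to 2 days (0.00378% of all genes called), 2 to 4 days (0.635%) and 7 to 14 days (0.667%), with 1, 1 and 0 members at an unadjusted p under 0.05. Of all genes tested, 2433 of 26447, 2363 of 26447 and 3254 of 26403 had such a p in these steps. The median of all genes shifted by 0.21 from 8 hours to 1 day and by 0.14 and 0.23 from 8 hours to 14 days in the dorsal and lateral wall, and these shifts run against the falls described here. With the scanner software's processed signals the same shifts were 0.73, 0.80 and 0.88, and the shift from 4 to 7 days was -0.42 in place of -0.05.

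The cyclooxygenases come first. Ptgs2 at 8 hours had levels of 7.55 and 8.49 in the 2 dorsal samples and 7.56 and 10.21 in the 2 lateral samples. At every later time its lateral samples were not well above background, on 15 of 15 arrays, with levels of 6.17 to 6.87. Later dorsal samples were well above background on 5 of 15 arrays, at 6.80 on 1 of 3 at 1 day, 6.94 and 6.42 on both at 2 days, 6.72 on 1 of 3 at 4 days and 6.78 on 1 of 4 at 14 days. All 4 samples of 8 hours were above all 30 later samples.

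Ptgs2 fell from 8 hours to 1 day, with a measured difference of -2.03 ± 0.40 (SE) averaged over the walls (limma adjusted p = 0.0272). At 1 day 5 of the 6 samples were not well above background, so this difference is no exact fold, and in the lateral wall, where none was, 8 hours was at least 5.92-fold higher. In the lateral wall its 8 hour mean of 8.88 ± 1.87 (SD, n = 2) was at least 5.29-fold higher than the level of 14 days (measured mean 6.48, adjusted p = 0.0257). That bound sets the brighter mean against the higher of the probe's own signal and the dimmest signal well above background on each array. In the dorsal wall the difference of 14 days against 8 hours was -1.42 ± 0.35 (adjusted p = 0.0675). The SEs and p-values of Ptgs2 come from 1 spread over all 17 arrays, and Ptgs2 was well above background in 9 of 34 samples. They therefore do not measure the spread between samples with signal.

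One array decided these calls. Without replicate 2 of 8 hours, which held the lateral level of 10.21, the step to 1 day was -1.14 (adjusted p = 0.339), the F test over time had an adjusted p of 0.277 in place of 0.0257 (0.0925 with the software version and 0.0649 with the replicate number as a block), and the lateral difference of 14 days against 8 hours was -1.08 (adjusted p = 0.249). The step also lost its call without replicate 2 of 1 day (-1.95, adjusted p = 0.0824), and the lateral difference did without replicate 3 or 4 of 14 days (adjusted p = 0.0548 and 0.0562). With the processed signals of the scanner software, the step was -4.33 (adjusted p = 0.0888). With the software version as a block it was -1.85 (adjusted p = 0.508). On the slide that held the 8 hour arrays, Ptgs2 was 1.30 lower in the dorsal and 2.56 lower in the lateral sample at 4 days than the mean at 8 hours. The second probe of Ptgs2 was well above background in 2 of 34 samples, both of replicate 2 of 8 hours, at 6.69 in the dorsal and 7.38 in the lateral sample.

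The walls did not differ in Ptgs2 beyond the test at any time. At 8 hours the lateral sample was level with the dorsal one on 1 array and higher on the other (dorsal minus lateral -0.86 ± 0.33, adjusted p = 0.511). Ptgs2 is also an immediate early gene, and of a list of 10 other such genes, with Fos, Egr1 and Arc among them, 0 were called between 8 hours and 1 day (2 at an unadjusted p under 0.05, median difference -0.26). Of all genes tested, 4754 of 26447 had an unadjusted p under 0.05 in that step.

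**Figure D1:**
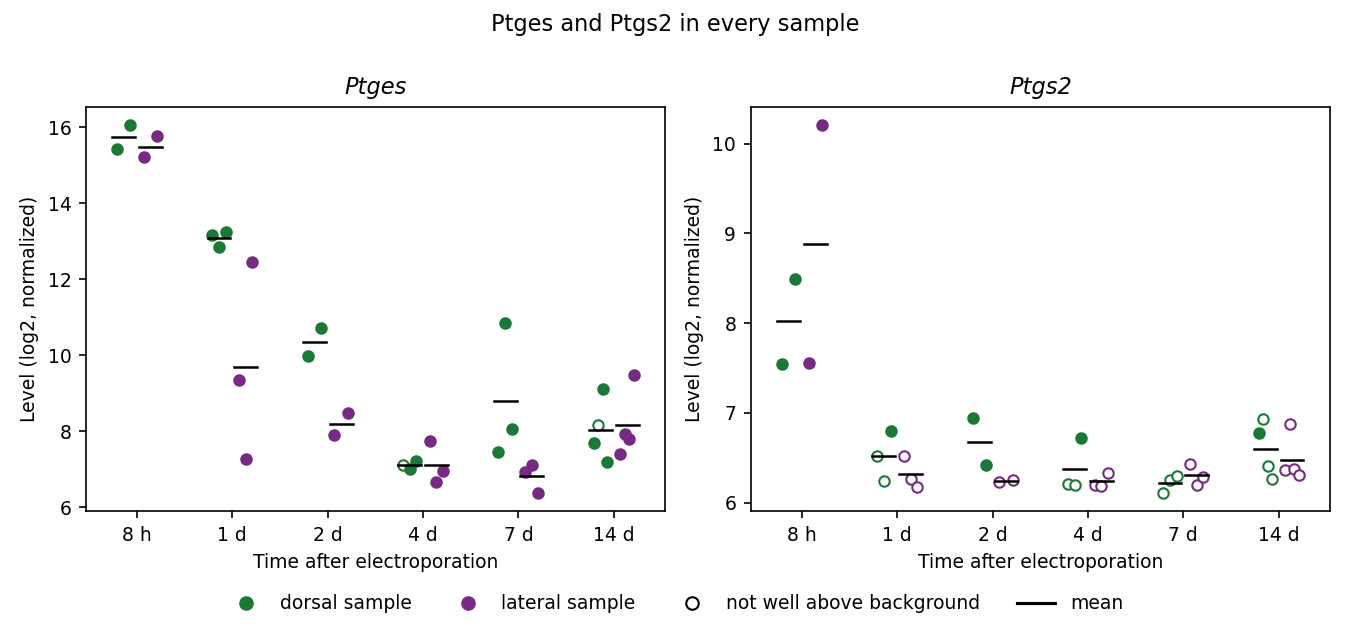
Normalized log2 levels of Ptges (left) and Ptgs2 (right) in every dorsal (green) and lateral (purple) sample by time after electroporation, with open circles for samples not well above background and bars for means. Both genes were highest at 8 hours, and at 1 day the 3 dorsal Ptges samples (12.8 to 13.2) lay above the 3 lateral ones (7.27 to 12.5).

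Ptgs1, the more constant cyclooxygenase, was well above background in 33 of 34 samples and ranged over 8.34 log2 units. Its levels were 9.02 and 9.08 in dorsal and 9.62 and 11.22 in lateral samples at 8 hours. At 1 day dorsal samples had 11.19, 10.14 and 9.93 and lateral samples had 15.13, 6.90 and 10.74, so the lateral samples of 1 time held the highest level of the probe and one close to its lowest of 6.79. The lateral level of 15.13 came from replicate 1, an array that stood apart. At 2 days the levels were 12.66 and 10.47 in dorsal and 11.39 and 10.89 in lateral samples.

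At 4 days Ptgs1 had 11.68, 11.61 and 9.65 in dorsal samples against 10.29, 8.72 and 6.79 in lateral ones, so the dorsal sample was higher on 3 of 3 arrays. That difference was 2.37 ± 0.99 and did not pass the test (adjusted p = 0.886, unadjusted p = 0.0336). At 7 days it had 13.00, 13.00 and 12.39 in dorsal and 10.89, 12.63 and 12.79 in lateral samples, and the step from 4 days was 2.66 ± 1.03 (adjusted p = 0.904). The 7 day sample was the higher one on each of the 3 slides that held both times, by 4.37, 0.96 and 2.65 in the mean of both walls. At 14 days replicate 1 was dropped for an outlier flag, and the other 3 arrays had 9.33, 10.36 and 11.44 in dorsal and 10.37, 11.89 and 12.63 in lateral samples. The dropped spot of Ptgs1 would have read 15.12 in the dorsal and 14.14 in the lateral sample, above all 3 others of its wall, and the dorsal 9.33 was not well above background. The F test over time had an adjusted p of 0.436. The genes whose pattern was most like that of Ptgs1 over 32 samples were Cebpa (r = 0.79), Gas6 (r = 0.75) and Lyl1 (r = 0.74), which encode a myeloid transcription factor, a ligand of TAM receptors and a haematopoietic transcription factor.

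Among the terminal synthases, Ptges had the widest range of the 6 genes, 9.67 log2 units. At 8 hours its levels were 15.44 and 16.06 in dorsal and 15.21 and 15.77 in lateral samples. At 1 day dorsal samples had 13.17, 12.84 and 13.24 and lateral samples had 9.35, 7.27 and 12.45. At 2 days they had 9.99 and 10.71 in dorsal and 7.90 and 8.48 in lateral samples. Dorsal groups did not overlap between 8 hours, 1 day and 2 days, each lower than the one before.

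From 4 days on Ptges stayed near the lower end of its range. At 4 days it had 7.11, 7.02 and 7.21 in dorsal samples against 7.74, 6.68 and 6.96 in lateral ones. At 7 days it had 7.47, 10.85 and 8.07 in dorsal samples against 6.93, 7.13 and 6.39 in lateral ones. At 14 days dorsal samples had 7.69, 8.17, 9.12 and 7.19 and lateral samples 7.41, 7.93, 7.80 and 9.49. Dorsal replicate 1 of 4 days and dorsal replicate 2 of 14 days were not well above background. Dorsal groups of 7 and 14 days overlapped, as did those of 4 and 14 days, while all 3 dorsal samples of 7 days lay above all 3 of 4 days. Lateral groups of 4 days overlapped with those of 7 and 14 days, and the 4 lateral samples of 14 days lay above the 3 of 7 days. The dorsal level of 10.85, in replicate 2 of 7 days, was above every sample of 2, 4, 7 and 14 days.

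Ptges fell by 4.24 ± 0.69 on the log2 scale from 8 hours to 1 day (18.8-fold, limma adjusted p = 0.00894). The mean of both walls spanned 8.50 log2 units over the 6 times (F test, adjusted p = 9.5e-05). At 14 days the dorsal level was 7.71 ± 0.76 lower than at 8 hours (209-fold, adjusted p = 0.000178). Dorsal Ptges was well above background on 3 of 4 arrays of 14 days, so this fold is not exact. The lateral level fell by 7.33 ± 1.02 on the log2 scale (161-fold, adjusted p = 0.00161). The later steps did not pass the test, with -2.12 ± 0.69 from 1 to 2 days (adjusted p = 0.507) and -2.15 ± 0.69 from 2 to 4 days (adjusted p = 0.246).

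The fall over the whole course kept its call in every setting tried, and the first step alone did not. That step was -4.53 without replicate 1 of 8 hours (adjusted p = 0.0780), -3.94 without replicate 2 (adjusted p = 0.159), -3.87 with the scanner software's processed signals (adjusted p = 0.105) and -4.70 with the software version as a block (adjusted p = 0.130). On the slide shared by 8 hours and replicate 3 of 4 days, Ptges was 8.54 lower at 4 days in dorsal and 8.53 lower in lateral samples, as large a fall as in the pooled arrays.

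Between the walls Ptges was higher in the dorsal sample on 15 of 17 arrays, by 1.28 ± 0.35 in the mean of the 6 times, which did not pass the test (adjusted p = 0.0843). At 1 day it was higher by 3.39 ± 0.82 on 3 of 3 arrays (adjusted p = 0.0674), and at 2 days by 2.16 ± 1.00 on 2 of 2 (adjusted p = 0.637). At 8 hours the difference was 0.26 ± 1.00, at 4 days -0.01 ± 0.82, at 7 days 1.98 ± 0.82 and at 14 days -0.12 ± 0.71. The change of the difference with time had an adjusted p of 0.613. Without replicate 3 of 1 day, where the lateral level was 12.45, the 1 day difference passed the test (4.70, adjusted p = 0.0153), as did the mean difference (1.49, adjusted p = 0.0272). The mean difference also passed without replicate 4 of 14 days (1.40, adjusted p = 0.0482). In the other direction, the 1 day difference was 2.30 without replicate 2 of 1 day (adjusted p = 0.239). The mean difference was 0.81 with median centring in place of loess (adjusted p = 0.132) and 0.59 with the replicate number as a block (adjusted p = 0.659).

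Some neutrophil markers fell over the same times as Ptges. Of 8 markers, 4 fell from 8 hours to 14 days in the dorsal wall (S100a8, S100a9, Ngp and Retnlg) and 3 in the lateral wall (S100a8, S100a9 and Retnlg), and 0 rose in either. Of all genes tested, 1.23% were called lower in the dorsal and 1.13% in the lateral wall. The alarmins S100a8 and S100a9 were well above background in all 4 samples of 8 hours and in none of the 8 samples of 14 days. From 8 hours to 1 day 2 of 8 fell, Ngp and Retnlg, where 0.858% of all genes fell (median of the list -1.97, against 0.21 over all genes tested). The summed level of the neutrophil list was 15.45 to 15.72 in dorsal and 15.48 to 16.19 in lateral samples at 8 hours, 11.41 to 14.52 and 10.75 to 15.38 at 1 day, and 11.77 or lower at all later times. In replicate order the 1 day sums were 11.41, 13.44 and 14.52 in dorsal samples (Ptges 13.17, 12.84 and 13.24). In lateral samples they were 11.59, 10.75 and 15.38 (Ptges 9.35, 7.27 and 12.45). The median wall difference of the list at 1 day was -0.06, with 0 of 8 called. Elane and Mpo, which mark immature granulocytes, did not pass the test between 8 hours and 14 days in either wall, with differences of 1.11 ± 0.44 and 1.00 ± 0.64 in the dorsal wall. Microglia and macrophage markers also had lower values at 1 day than at 8 hours, 12 of 12 below 0 with a median difference of -3.60 (0 called by limma, 9 at an unadjusted p under 0.05, against 4754 of 26447 genes tested). Their summed level was 17.21 to 17.47 in dorsal and 18.82 to 18.84 in lateral samples at 8 hours, against 15.11 to 17.48 and 12.19 to 17.43 at 1 day. At 14 days it was 12.66 to 18.81 and 16.44 to 19.51, overlapping with 8 hours in both walls. The summed level of the 8 radial glia markers was 19.02 to 19.19 in dorsal and 17.6 to 17.69 in lateral samples at 8 hours. At 4 days it was 16.67 to 17.56 and 16.46 to 17.66, and at 14 days 17.95 to 18.43 and 16.65 to 18.39. From 8 hours to 1 day 0 of 8 were called (median difference 0.13). In the mean wall difference 3 of 8 were called higher in dorsal samples, against 2.38% of all genes called. The part of radial glia, neutrophils, microglia and macrophages in the Ptges and Ptgs2 results was not tested.

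By likeness of pattern over the 34 samples among 20525 genes, Ptges was closest to Mlkl (r = 0.95), Stfa1 (r = 0.94) and Csta2 (r = 0.94). Mlkl encodes an executor of necroptosis, and Stfa1 and Csta2 belong to the stefin family of cysteine protease inhibitors. All 34 values come from 17 arrays and share their slides and amplification, so the correlations are descriptions. The mean level of Mlkl fell from 14.79 in dorsal and 13.13 in lateral samples at 8 hours to 7.40 and 7.57 at 14 days.

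**Figure D2:**
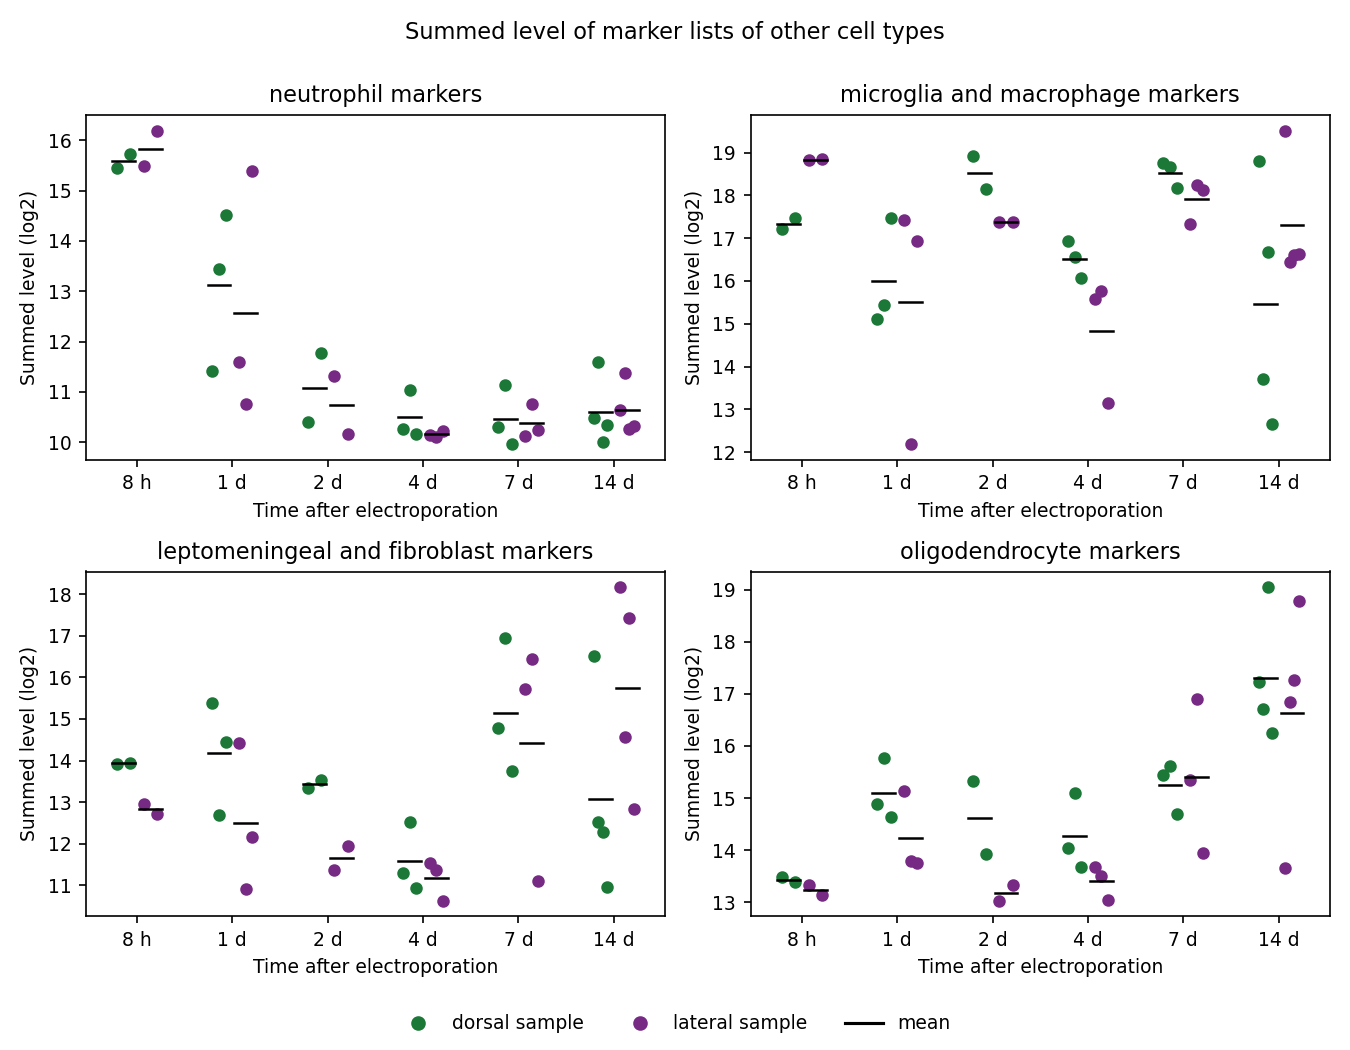
Summed normalized log2 level of 4 marker lists in every dorsal (green) and lateral (purple) sample by time, with bars for means. The neutrophil list was at 15.45 or above in all samples of 8 hours and at 11.77 or below from 2 days on, and the leptomeningeal list was at 12.51 or below in all samples of 4 days.

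Ptges2, a membrane-associated protein first described as a prostaglandin E synthase, was well above background in 34 of 34 samples. At 8 hours its levels were 11.34 and 11.60 in dorsal and 11.23 and 11.22 in lateral samples, and at 2 days 11.02 and 11.17 in dorsal and 11.21 and 11.54 in lateral ones. At 1 day dorsal samples had 7.55, 11.40 and 11.17 and lateral samples had 6.84, 11.01 and 10.61. Both low values came from replicate 1, an array that stood apart, and the other 4 samples lay between 10.61 and 11.40.

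At 4 days Ptges2 had 9.61, 10.98 and 10.91 in dorsal and 10.58, 11.10 and 10.69 in lateral samples, and at 7 days 10.79, 11.90 and 10.88 in lateral ones. The dorsal samples of 7 days had a median of 10.65 and a lowest level of 8.55, in replicate 2. At 14 days the levels were 11.48, 11.01, 12.89 and 8.28 in dorsal and 11.30, 13.27, 10.28 and 10.86 in lateral samples. Neither the change with time (span of means 1.58, adjusted p = 0.688) nor the wall difference at any time passed the test. The genes closest to it were Ttc17 (r = 0.80), BC005624 (r = 0.79) and the unnamed probe A_51_P295037 (r = 0.78), over 30 to 32 samples.

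Ptgds was well above background in 34 of 34 samples and followed a course unlike that of Ptges. At 8 hours its levels were 10.40 and 11.62 in dorsal and 14.00 and 13.58 in lateral samples. At 1 day they were 14.98, 13.45 and 12.40 in dorsal and 13.39, 13.91 and 14.28 in lateral samples. At 2 days they were 11.32 and 13.10 in dorsal and 13.41 and 13.10 in lateral samples.

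At 4 days Ptgds lay at 10.30 to 12.29 in dorsal and 10.73 to 11.53 in lateral samples. At 7 days it lay at 15.42 to 16.80 in dorsal samples and at 13.21 to 16.57 in lateral ones, so that no sample of 7 days overlapped with any of 4 days. At 14 days the 3 measured arrays had 12.70 to 16.02 in dorsal and 13.31 to 16.15 in lateral samples, since replicate 4 was dropped for an outlier flag. Both walls were lowest or next to lowest at 4 days, and in both the 7 and 14 day levels overlapped.

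Ptgds rose by 4.52 ± 0.64 on the log2 scale from 4 to 7 days, averaged over the walls (23.0-fold, limma adjusted p = 0.0227), as 1 of 19 genes called higher in that step. The rise was seen on each of the 3 slides that held both times, by 5.74, 3.79 and 4.51 in dorsal and 2.48, 5.63 and 4.99 in lateral samples. The F test over time had an adjusted p of 0.00709. The step before it, from 2 to 4 days, was -1.49 ± 0.71 (adjusted p = 0.595).

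The call of the 4 to 7 day step was near its threshold, and its size lay between 4.07 and 5.09 on the log2 scale over all settings. Leaving out either array of 8 hours gave an adjusted p of 0.0538, any array of 4 days 0.0756 to 0.125, and replicate 1 or 2 of 7 days 0.101 or 0.168. With the processed signals it was 0.106 and with slide as a random block 0.0687. The F test kept its call in every setting tried.

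Ptgds tended the other way between walls at 8 hours, where both lateral samples lay above both dorsal ones (dorsal minus lateral -2.78 ± 1.08), without passing the test (adjusted p = 0.527, unadjusted p = 0.0250). From 8 hours to 14 days the dorsal level differed by 3.40 ± 1.02 (adjusted p = 0.159) and the lateral level by 0.64 ± 0.97 (adjusted p = 0.836). Without replicate 1 of 14 days the dorsal difference passed the test (4.25, adjusted p = 0.0481).

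Leptomeningeal and fibroblast markers had higher values at 7 than at 4 days as well. Of 10 such markers, 9 had a difference above 0 and 0 were called by limma (8 at an unadjusted p under 0.05, against 1151 of 26447 genes tested), with a median difference of 3.71 against -0.05 over all genes tested. Igf2 had 6.20 ± 1.37, the transporter gene Slc6a13 4.82 ± 1.34 and the proteoglycan gene Dcn 4.60 ± 1.21. The summed level of the list went from 10.94 to 12.51 in dorsal and 10.63 to 11.53 in lateral samples at 4 days to 13.74 to 16.94 and 11.10 to 16.44 at 7 days. Dcn, Lum, Igf2 and Foxc1 were well above background in no sample of 4 days, and Dcn and Igf2 were in all 6 samples of 7 days.

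Microglia and macrophage markers had a median difference of 2.91 over the same step (0 of 12 called by limma, 8 at an unadjusted p under 0.05). Their summed level was 16.06 to 16.93 in dorsal and 13.16 to 15.76 in lateral samples at 4 days and 18.17 to 18.76 and 17.33 to 18.25 at 7 days. Of 7 choroid plexus markers 6 had a difference above 0 over that step (0 called by limma and 0 at an unadjusted p under 0.05, median 0.55), and of 10 oligodendrocyte markers 9 (0 called, 3 at an unadjusted p under 0.05, median 0.64). The choroid plexus sum was 16.74 in dorsal replicate 2 of 7 days and 9.68 to 11.15 in the other 5 samples of that time. That sample also had the highest Ptgds level (16.80) and the dorsal Ptges level of 10.85. The oligodendrocyte sum was 13.67 to 15.10 in dorsal and 13.05 to 13.67 in lateral samples at 4 days and 14.69 to 15.61 and 13.94 to 16.91 at 7 days. The genes closest in pattern to Ptgds were Dcn (r = 0.76, 30 samples), the unnamed probe A_51_P312859 (r = 0.75, 32 samples) and the collagen gene Col3a1 (r = 0.75, 30 samples), 2 of which are on the leptomeningeal list. The part of these cells in the Ptgds result was not tested.

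**Figure D3:**
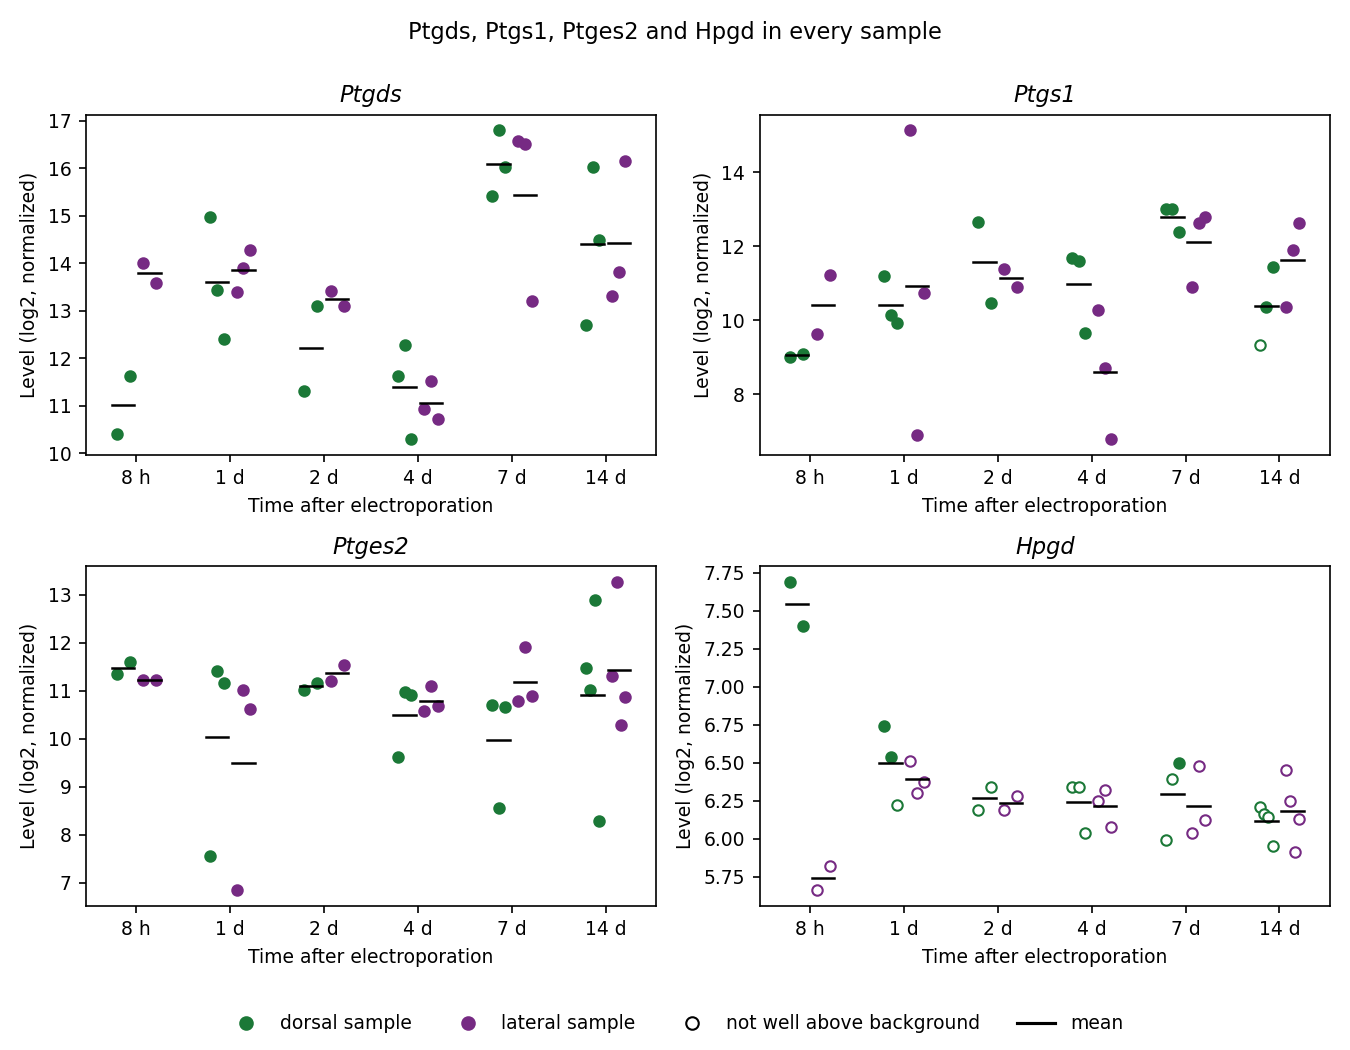
Normalized log2 levels of Ptgds, Ptgs1, Ptges2 and Hpgd in every dorsal (green) and lateral (purple) sample by time, with open circles for samples not well above background, bars for means and a separate axis for each gene. All 6 Ptgds samples of 7 days (13.21 to 16.80) lay above all 6 of 4 days (10.30 to 12.29), and Hpgd was apart from its other values in the dorsal samples of 8 hours (7.69 and 7.40).

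Hpgd, the dehydrogenase that begins the inactivation of prostaglandins, was the enzyme with the least signal, well above background in 5 of 17 dorsal and 0 of 17 lateral samples. At 8 hours the dorsal samples had 7.69 and 7.40, and the lateral samples, not well above background, had 5.66 and 5.82. The dorsal samples of 8 hours lay above the other 32 samples, and the lateral samples of 8 hours below them. At later times dorsal samples had 5.95 to 6.74 and lateral samples 5.91 to 6.51, and the walls overlapped at each time.

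At 8 hours Hpgd was at least 3.08-fold higher in dorsal than in lateral samples, with a measured difference of 1.81 ± 0.21 (higher on 2 of 2 arrays, limma adjusted p = 0.00234). This SE and p come from 1 spread over all 17 arrays, and on 12 of them neither Hpgd channel was well above background. They therefore do not measure the spread between samples with signal. Hpgd was the 1 member of 6 called between the walls at 8 hours, where 0.378% of all genes were called. The second Hpgd probe had 6.73 and 6.76 in dorsal samples of 8 hours and was at least 1.52-fold higher than in lateral ones. That probe was well above background in 3 of 34 samples, all dorsal, and both dorsal samples of 8 hours were among them. It passed the filter of 2 arrays only with these samples, so it is no separate check of this difference. With the brighter probe, the wall difference lay between -0.07 and 0.11 from 1 to 14 days. The mean over the 6 times was 0.33 ± 0.07 (adjusted p = 0.0383), the 1 of 6 members called there, against 2.38% of all genes. On 12 of the 17 arrays neither channel was well above background, the dorsal value was the higher one on 9 of 17, and the probe passed the filter through the dorsal channel alone, so this mean gives no size of a wall difference.

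The change of the Hpgd wall difference with time did not pass the test (adjusted p = 0.0711). In the dorsal wall Hpgd was at least 2.18-fold lower at 14 days than at 8 hours (measured difference -1.43 ± 0.28, adjusted p = 0.0212), where at 14 days it was not well above background on any of 4 arrays. In the lateral wall the difference of 0.45 ± 0.25 lay between groups that were not well above background.

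Both arrays of 8 hours shared 1 slide, and the signal over local background was 7.95 and 6.69 in the dorsal samples. The wall call at 8 hours was lost without replicate 1 of 8 hours (1.59, adjusted p = 0.0676). The deposited value table gave 4.46 (adjusted p = 0.129), and quantile normalization gave 1.25 (adjusted p = 0.0599). The dorsal change to 14 days lost its call without replicate 1 (-1.29, adjusted p = 0.334) or replicate 2 of 8 hours (-1.58, adjusted p = 0.131), and with the processed signals it was -3.33 (adjusted p = 0.181). The mean wall difference lost its call when any 1 of 12 arrays was left out (adjusted p up to 0.135), among them both of 8 hours, and with the processed signals it was 1.17 (adjusted p = 0.0595).

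Apart from Hpgd at 8 hours and in the mean, limma called no wall difference of a member. That was 0 of 6 at 1 day (1.1% of all genes called), 2 days (0.181%), 4 days (0%), 7 days (0.0265%) and 14 days (0.0227%), with 1, 0, 1, 1 and 0 members at an unadjusted p under 0.05. Of all genes tested, 4244, 2080, 1446 and 1365 of 26447 and, at 14 days, 2725 of 26403 had such a p. For the change of the wall difference with time limma called 0 of 6 (0.0985% of all genes called). There 2 members, Ptges and Hpgd, had an unadjusted p under 0.05, as did 2118 of 26403 genes tested. The members also differed among themselves over the samples. Pearson's r between the 4 genes with signal in at least 17 samples was 0.40 for Ptgs1 and Ptgds, -0.42 for Ptgs1 and Ptges2 and between -0.14 and 0.00 for the other pairs, over 30 to 34 samples that share arrays in pairs.

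**Figure D4:**
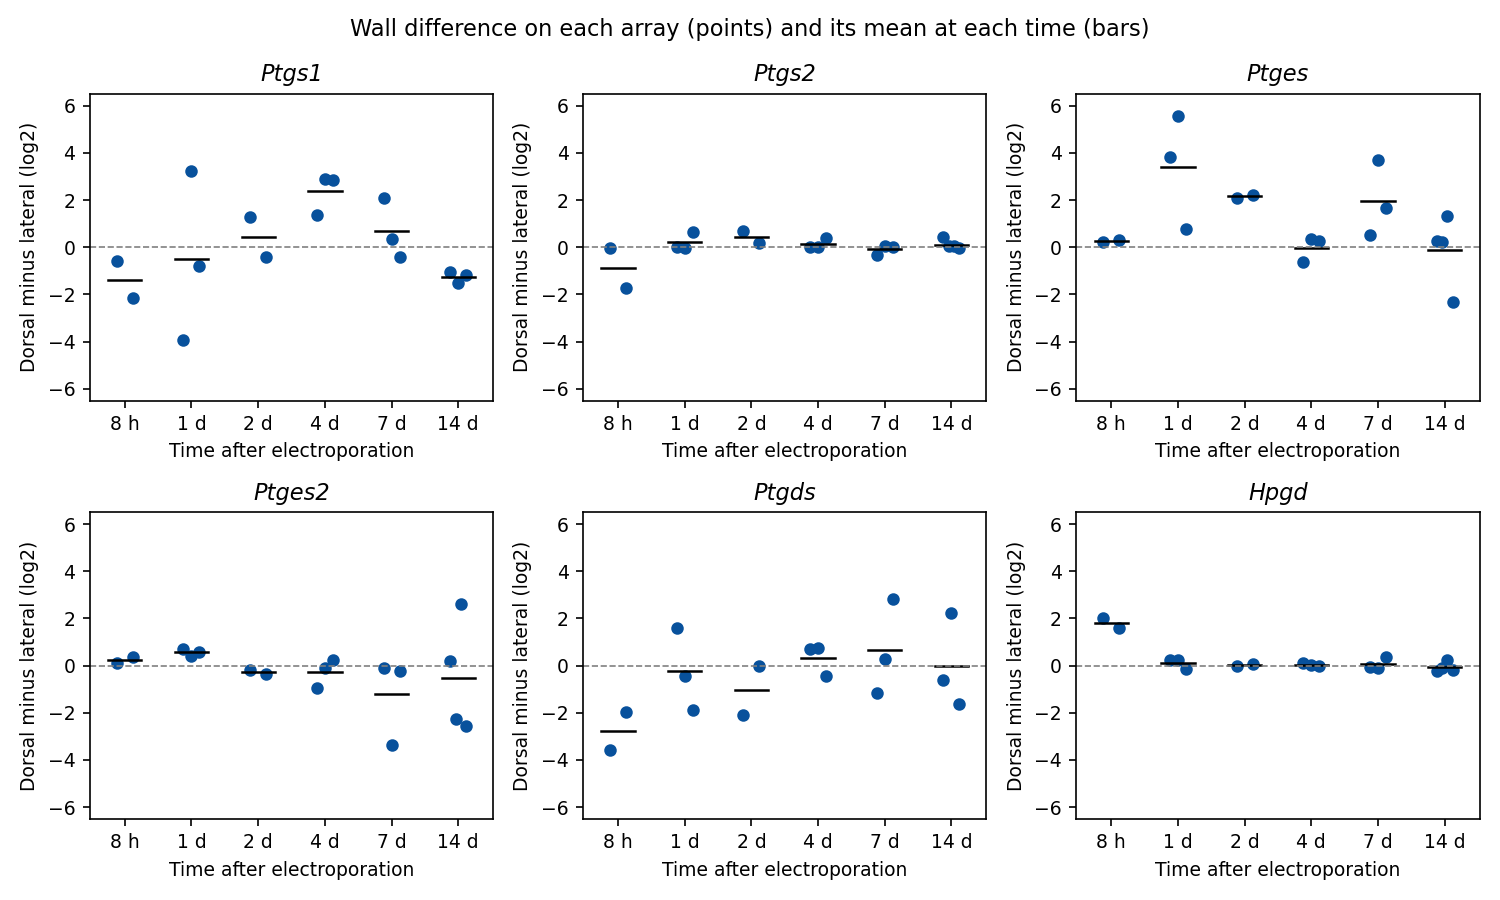
Dorsal minus lateral log2 level on each array (points) and the mean at each time (bars) for the 6 enzymes, on 1 scale, with a dashed line at 0. Hpgd differed between the walls at 8 hours (1.81) and lay near 0 later, and Ptges points lay above 0 on all 3 arrays of 1 day and both of 2 days.

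Few genes of the rest of the pathway passed the test. Of 30 further genes for release of arachidonic acid, other terminal synthases, further breakdown, transport and receptors, 29 passed the filter, and the receptor gene Ptgdr did not. Between 8 hours and 1 day limma called 0 of 29 (7 at an unadjusted p under 0.05, median difference 0.13), and between 4 and 7 days 0 of 29 (5 at an unadjusted p under 0.05, median 0.11). Of all 26447 genes tested, 4754 and 1151 had such a p in these steps. In each of the wall comparisons limma called 0 of 29, with 0 to 5 at an unadjusted p under 0.05, against 1365 to 4313 of all genes tested.

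One phospholipase rose in the lateral wall. Pla2g6, a calcium-independent phospholipase A2, had 7.26 and 7.96 in lateral samples of 8 hours and 10.64 to 11.88 in the 4 lateral samples of 14 days, with no overlap. The rise was 3.69 ± 0.84 (12.9-fold, adjusted p = 0.0379), the 1 of 29 called there, where 1.06% of all genes were called higher. Its adjusted p was above 0.05 in 14 of 30 settings. It was 0.0508 to 0.347 when any 1 of 9 arrays was left out, with the larger values without an array of 8 hours, and 0.0522 without both arrays that were unlike the rest. With the scan day, the software version or the replicate number as a block it was 0.0769, 0.0580 and 0.106, and with the processed signals 0.0682. In the dorsal wall Pla2g6 had a mean of 9.88 at 8 hours and 9.54 at 14 days.

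Of the 29, 2 changed with time when both walls were averaged, a share near the 7.57% of all genes called in that F test. The median span over time was 2.08 log2 units in the list and 1.37 over all genes tested, and 9 of 29 had an unadjusted p under 0.05, as did 5625 of all 26403. Prxl2b, which encodes a prostaglandin F synthase, had its lowest dorsal mean at 4 days (9.16 ± 1.01, SD, n = 3) and its highest lateral mean at 1 day (13.29 ± 1.40, n = 3), with an adjusted p of 0.0175 in the F test. Ptgr1, a reductase that acts after Hpgd in breakdown, had a dorsal mean of 13.55 ± 0.04 (n = 2) at 8 hours, 11.20 ± 1.06 (n = 3) at 4 days and 14.63 ± 1.82 (n = 4) at 14 days, with an adjusted p of 0.0365. Leaving out any 1 of 3 arrays ended the call of Prxl2b (adjusted p of 0.0505 to 0.0566), and any 1 of 11 that of Ptgr1 (0.0515 to 0.103).

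The receptors of prostaglandin E2 had little signal. Ptger1 was well above background in 5 of 17 dorsal and 6 of 17 lateral samples, Ptger2 in 4 and 3, Ptger3 in 2 and 2, and Ptger4 in 6 and 4. Ptger2 and Ptger4 had dorsal means of 7.39 ± 0.71 and 7.98 ± 0.47 at 8 hours (SD, n = 2), both well above background, against 6.54 and 6.24 at 1 day, and neither passed the test in that step (adjusted p = 0.370 and 0.265). Ptgdr2, a receptor of prostaglandin D2, was well above background in all 34 samples with group means of 8.50 to 10.14 and did not change with time beyond the test (adjusted p = 0.576).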

How the data were processed

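Each spot had a linear fluorescence intensity, extracted by the authors with Agilent Feature Extraction 10.5.1.1 (9 arrays) or 10.7.3.1 (8 arrays), per the file headers. Mean signals and median local background were corrected with normexp (offset 50), log ratios were normalized by loess with control spots at weight 0, and mean log2 intensities by Aquantile. Outlier-flagged spots were left out (0.32 to 2.61% per array), no spot was saturated, and spots of a probe were averaged. The brightest probe stood for a gene. A probe was kept if it was well above background on 2 or more arrays, in one channel or the other (36771 of 41174), which gave 26447 genes, or 26403 where 14 days enters. Probes were named through a RefSeq accession (26876), a symbol or synonym (3241) or the files' own name (11057), using RefSeq names of GRCm38.p6.

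One mean per time was fitted to all 17 arrays with limma 3.58.1 (lmFit and eBayes, two-sided) in R 4.3.3 with the data.table package (version 1.17.8), and p-values were adjusted by Benjamini-Hochberg within each comparison across its genes, and called under 0.05. Differences in the text carry the SE of that fit. The steps were tested on simulated data. Figures were drawn with Python 3.11.15 and matplotlib 3.10.9.

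The deposited log10 ratios (Cy5 over Cy3), per the file headers, were used to read the scale of the deposited series table. The values in that table, as deposited by the authors, are log2 ratios of Cy3 over Cy5, since its columns correlated with the scanner ratio at r of -0.972 to -0.903 with slopes of -3.29 to -3.04 on the log10 scale, and its medians were -0.164 to 0.0459. The sources used here do not give how it was normalized. It served as an alternative for wall differences.

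The members, the pathway list and the marker lists were chosen with earlier results of these data known. The genes named are the members, pathway genes past the threshold in a comparison described, the receptors of prostaglandins E2 and D2, and for each member well above background in at least 17 of 34 samples the 3 genes of highest Pearson r. Marker genes and further probes are named beside them and were chosen after their values were seen. Alternatives covered the background correction, scaling, filter, probes, array weights, batches, replicate number and each array left out.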

Additional observations from a re-analysis of the deposited data

Results flagged for a closer look

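In the lateral samples of 14 days Ptgs2 had a level of 6.87 in replicate 2, while the other 3 samples lay between 6.31 and 6.37. The gap to the nearest of the others took up 0.89 of the whole range, which flagged it as a sample far from the others. Chance flags about 1 in 20 groups of this kind, and groups of 4 were the only ones tested. None of these 4 samples was well above background, and replicate 2 is one of the arrays that stood apart.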

How the results depend on the processing

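Counts of members called were compared over all settings, and the cause of each difference was not tested. For the mean wall difference, 1 of 6 was called, with 0 from the scanner's processed signals, quantile normalization, a filter of 9 arrays, the mean over probes and the deposited value table, and 2 with median centring, array weights and slide as a random block. For the wall difference at 8 hours, 1 was called, with 0 under quantile normalization, the 9-array filter, scan day or slide as a fixed block and the value table. At 1 day 0 were called, with 1 under the random slide block. For the change of the wall difference with time, 0 were called, with 1 without a filter, with array weights and with the random slide block. The F test over time called 3, and 5 with array weights. The step from 8 hours to 1 day called 2, with 0 from processed signals, 1 under the 9-array filter, 4 with array weights and 0 with software version as a block. Array weights gave 1 in place of 0 from 1 to 2 days and from 2 to 4 days. From 4 to 7 days 1 was called, with 0 from processed signals and with the random slide block. For 14 days against 8 hours, the dorsal count of 2 became 1 with processed signals, quantile normalization and the 9-array filter and 4 with the random slide block, and the lateral count of 2 became 1 under the 9-array filter and with scan day as a block. Ptgs2 and Hpgd failed the 9-array filter, so its lower counts have fewer members tested. The random slide block had a negative correlation within slides, -0.17 for wall differences and -0.24 for the mean of both walls. It was -0.22 and -0.24 for dorsal and lateral levels. The extra calls of that block are therefore no added support.

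Same-numbered samples had 5 of 36 correlations of the mean of both walls over 0.1, against 9 of 83 for other numbers. For wall differences they had 0 of 36. The numbers were therefore not treated as a pairing in the main fit, though these correlations cannot exclude one. The letters in the sample titles differ from the numbers at 1 day (b, c and d) and 14 days (a, b, d and e). A pairing by letter was not tested. Replicates 1 of 2, 4 and 7 days shared a slide, as did replicates 2 of these times and replicates 3 of 4 and 7 days. With the replicate number as a block, 0 members were called in the mean wall difference, 0 from 4 to 7 days and 1 in each wall from 8 hours to 14 days, and the other counts stayed within 1.5 times.

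Leaving out 1 array at a time gave 0 to 2 members for the mean wall difference, 0 to 1 at 8 hours and 0 to 1 at 1 day. It gave 2 to 3 in the F test over time, 0 to 2 from 8 hours to 1 day, 0 to 1 from 4 to 7 days, 1 to 3 in the dorsal and 1 to 2 in the lateral comparison of 14 days with 8 hours, and 0 in the other comparisons. The lateral Ptgds difference between 14 days and 8 hours of 0.64 ranged from -0.23 (without replicate 3 of 14 days, limma adjusted p = 0.938) to 1.19 (without replicate 1 of 14 days) when 1 array was left out. Low signal limits Ptgs2 and Hpgd, which were well above background in 9 and 5 of 34 samples. The spread behind their SE and p-values includes the samples not well above background.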
